A study of Mus musculus with 4 samples.

Results

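The lineage transcription factor genes of invariant natural killer T (iNKT) cell subsets were followed across single cells, cell classes and genotypes. They are Zbtb16, Tbx21, Gata3, Eomes, Runx3, Id2, Id3, Zbtb7b, Hopx and Maf, matched by symbol to 10 of the 32285 genes in the count matrices. All 10 had at least 1 read molecule in iNKT cells. In the sum over iNKT cells 9 of the 10 passed the filter on low counts, and Eomes did not. In mm10 (GENCODE annotation) all are protein-coding genes. Runx3 (135120652 to 135177990) and Id3 (136143497 to 136145755) lie close together on chromosome 4. Gata3 is on chromosome 2 (9857078 to 9890034), Zbtb7b on 3 (89377644 to 89394776), Hopx on 5 (77086988 to 77115121) and Maf on 8 (115682942 to 115707794). Zbtb16 (48654297 to 48836222) and Eomes (118478212 to 118486132) are on chromosome 9, Tbx21 on 11 (97098071 to 97115331) and Id2 on 12 (25093799 to 25097140).

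iNKT cells are T cells with a semi-invariant receptor that are selected in the thymus on CD4+CD8+ double-positive (DP) thymocytes presenting lipid on CD1d. They mature from an early stage, iNKT0, into subsets that are named for the helper T cells they resemble. PLZF, the product of Zbtb16, gives the lineage its innate-like program, T-bet marks iNKT1, high PLZF with GATA3 marks iNKT2, and RORγt marks iNKT17. Id2 and Id3 bind E proteins and keep them from DNA, so they shift the balance between these subsets.

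The study asked how ACC1, the acetyl-CoA carboxylase encoded by Acaca that starts fatty acid synthesis, bears on thymic iNKT cells. Thymic iNKT cells of wild-type (WT) mice and of mice labelled ACC1 KO, all 6 to 8 weeks old, were enriched magnetically and then sorted as CD3+ and CD1d tetramer+. Each genotype had 2 libraries, numbered 1 and 2, made with the 10x Genomics 3′ chemistry, which counts unique molecular identifiers (UMIs) near the 3′ end of transcripts. The deleted part of Acaca, any Cre driver, the strain and whether the libraries came from separate or pooled animals are not stated in the sources used here, so p-values measure only the spread between these libraries.

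The 4 libraries held 5499 to 9927 cell barcodes and 29066597 to 74190167 UMIs. After filtering, 27065 cells fell in iNKT clusters, with 4623 and 9022 WT and 5616 and 7804 ACC1 KO cells in libraries 1 and 2. Median depth was 4657 and 6207.5 UMIs per iNKT cell in WT 1 and WT 2, against 4481 and 7340.5 in ACC1 KO 1 and ACC1 KO 2. In the iNKT cells Cd3e was 456 to 686 CPM (the standard scaled count, here a gene's UMIs relative to all UMIs of the summed cells) and Trac 472 to 674 CPM, whereas the B cell gene Cd79a was 0.458 to 0.969 CPM. The libraries numbered 1 stood apart from those numbered 2. Xist was 0.590 and 0.245 CPM in the former against 587 and 655 CPM in the latter, and Ddx3y, on the Y chromosome, was 81.8 and 76.6 against 0.0632 and 0.0760 CPM. The main comparisons of genotypes are therefore also given within each number. Between 10 and 27 barcodes were shared by any pair of libraries.

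Cell classes were built and named without the 10 members, so no member placed a cell. In the order WT 1, WT 2, ACC1 KO 1 and ACC1 KO 2, iNKT1-like cells were 81.6%, 83.8%, 74.0% and 75.2% of the iNKT cells. The iNKT2-like cells were 3.44%, 1.66%, 5.36% and 5.37%, and numbered 159, 150, 301 and 419. The iNKT17-like cells numbered 79, 78, 23 and 32, and the iNKT0-like cells 73, 48, 126 and 95. The remaining cells were interferon-responding (411 to 755 per library), cycling iNKT1-like or cycling iNKT2-like. All values per library below follow the order WT 1, WT 2, ACC1 KO 1, ACC1 KO 2, and all levels are CPM, scaled between libraries by the TMM method where genotypes are compared.

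Promoter sequences are shown for 4 members, Id2 and Id3 as the antagonists of E proteins, which were high and low in opposite ways in iNKT0-like and iNKT1-like cells, and Runx3 and Tbx21 as factors that both stood high in the iNKT1-like classes. They are from RefSeq on GRCm38.p6, 5′ to 3′ on the gene's strand, 250 bases before to 50 after an annotated start. Capitals mark E-boxes, the motif CANNTG that E proteins bind, which is its own reverse complement at the fixed bases. The windows are chr12:25096043-25096342 (− strand) for Id2, chr4:136143572-136143871 (+ strand) for Id3, chr4:135120395-135120694 (+ strand) for the first of 2 Runx3 promoters and chr11:97115282-97115581 (− strand) for Tbx21.
Id2: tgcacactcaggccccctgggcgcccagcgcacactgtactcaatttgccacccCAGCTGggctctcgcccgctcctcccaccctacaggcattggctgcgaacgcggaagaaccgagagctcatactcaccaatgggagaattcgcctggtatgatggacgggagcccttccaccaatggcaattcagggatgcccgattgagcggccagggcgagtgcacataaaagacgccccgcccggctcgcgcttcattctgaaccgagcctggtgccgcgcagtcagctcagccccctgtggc
Id3: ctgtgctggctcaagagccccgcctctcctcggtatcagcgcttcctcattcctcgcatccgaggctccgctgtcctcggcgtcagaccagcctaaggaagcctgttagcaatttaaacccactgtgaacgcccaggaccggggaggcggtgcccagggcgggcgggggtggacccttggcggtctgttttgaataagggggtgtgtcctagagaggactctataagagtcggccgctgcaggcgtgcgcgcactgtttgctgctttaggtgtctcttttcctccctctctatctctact
Runx3: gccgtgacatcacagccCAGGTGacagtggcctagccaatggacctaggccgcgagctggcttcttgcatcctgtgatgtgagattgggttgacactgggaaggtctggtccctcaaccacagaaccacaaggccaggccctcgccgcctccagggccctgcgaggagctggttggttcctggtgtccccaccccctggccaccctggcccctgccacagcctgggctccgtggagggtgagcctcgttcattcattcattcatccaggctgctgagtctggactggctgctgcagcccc
Tbx21: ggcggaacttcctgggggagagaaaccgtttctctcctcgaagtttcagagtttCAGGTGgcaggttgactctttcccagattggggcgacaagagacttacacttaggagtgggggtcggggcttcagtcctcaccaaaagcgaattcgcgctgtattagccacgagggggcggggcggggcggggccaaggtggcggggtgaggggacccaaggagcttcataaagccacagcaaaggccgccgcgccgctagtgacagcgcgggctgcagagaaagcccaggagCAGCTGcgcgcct
The Tbx21 window held 2 E-boxes, the Id2 and Runx3 windows 1 each, and the Id3 window none. E-boxes occurred in 72.3% of all 32851 promoter windows, and were thus common. The Runx3 window also held 2 matches of TGTGGT, the letters RUNX factors bind, counted on both strands, which 16.8% of all windows held at least once. The table had promoters for 8 of the 10 members.

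Zbtb16, which encodes the zinc finger factor PLZF, was highest in iNKT2-like cells. Its level there was 851, 1283, 783 and 1523 CPM, against 133, 120, 98.4 and 94.5 CPM in iNKT1-like cells. The ratio between the classes was 6.39 to 16.1 within libraries. The mean was 883 CPM in cycling iNKT2-like cells, 650 CPM in iNKT17-like cells and 354 CPM in iNKT0-like cells, and each neighbour in this order overlapped the next over the 4 libraries. The iNKT0-like level itself was spread widely, at 94.4, 317, 249 and 755 CPM. In DP thymocyte-like cells, which came through the sort, Zbtb16 was 2.71 to 10.5 CPM.

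Tbx21, which encodes T-bet, was higher on the iNKT1 side, although the other 4 classes followed the same order as for Zbtb16. It was 131, 155, 101 and 162 CPM in iNKT1-like cells and 37.6, 37.7, 29.5 and 33.9 CPM in iNKT2-like cells, with no library of one class reaching the other. The iNKT1-like, interferon-responding and cycling iNKT1-like levels overlapped one another, and all lay above the iNKT2-like level. iNKT17-like cells averaged 12.5 CPM and iNKT0-like cells 7.9 CPM. Eomes, the other T-box factor of cytotoxic lymphocytes, was all but undetected, with 0, 4, 5 and 6 UMIs over all iNKT cells of the 4 libraries.

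Runx3, a factor of cytotoxic T cell and NK programs, and Hopx, a small homeodomain protein of effector T cells, followed the iNKT1 side. Runx3 averaged 332 CPM in iNKT1-like cells, 162 CPM in iNKT17-like cells and 60.8 CPM in iNKT2-like cells, and these 3 levels did not overlap between libraries. Its iNKT1-like level was 4.17 to 7.29 times the iNKT2-like level within libraries. Hopx averaged 268 CPM in iNKT1-like cells and 31.2 CPM in iNKT2-like cells, a ratio of 7.97 to 9.98. In cycling iNKT1-like cells Hopx stood lower, at 157 CPM, without overlapping the iNKT1-like libraries.

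Id3 and Id2 divided the classes differently. Id3 averaged 734 CPM in iNKT0-like cells, 535 CPM in cycling iNKT2-like cells and 375 CPM in iNKT2-like cells. It was 86.0 CPM in iNKT17-like cells and 15.2 CPM in iNKT1-like cells, and each step from the iNKT2-like level down was free of overlap. DP thymocyte-like cells held Id3 at 137 to 163 CPM. Id2 was 129 CPM on average in iNKT0-like cells and 664.5 to 1222 CPM in every other iNKT class, with no overlap at that step. Thus iNKT0-like cells had high Id3 with low Id2, iNKT1-like cells low Id3 with high Id2, and iNKT2-like cells substantial levels of both.

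Gata3, the T helper 2 factor, varied less. It averaged 302 CPM in iNKT0-like cells, 215 CPM in iNKT2-like cells and 209.5 CPM in cycling iNKT2-like cells, then dropped without overlap to 135 CPM in iNKT17-like cells. iNKT1-like cells held 116 CPM and cycling iNKT1-like cells 98.6 CPM. Maf, the c-Maf gene that RORγt-expressing T cells use, was highest in iNKT17-like cells at 475.5 CPM, above every library of the next class. It was 173 CPM in interferon-responding, 153 CPM in iNKT2-like and 120 CPM in iNKT1-like cells, each overlapping the next, and 15.8 CPM in iNKT0-like cells. The interferon-responding libraries (154.9 to 195.2 CPM) all lay above the iNKT1-like ones (103.0 to 153.1 CPM). Zbtb7b, whose product ThPOK fixes the CD4 lineage, was low throughout, from 9.7 CPM in iNKT0-like to 35.3 CPM in iNKT2-like cells.

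**Figure D1:**
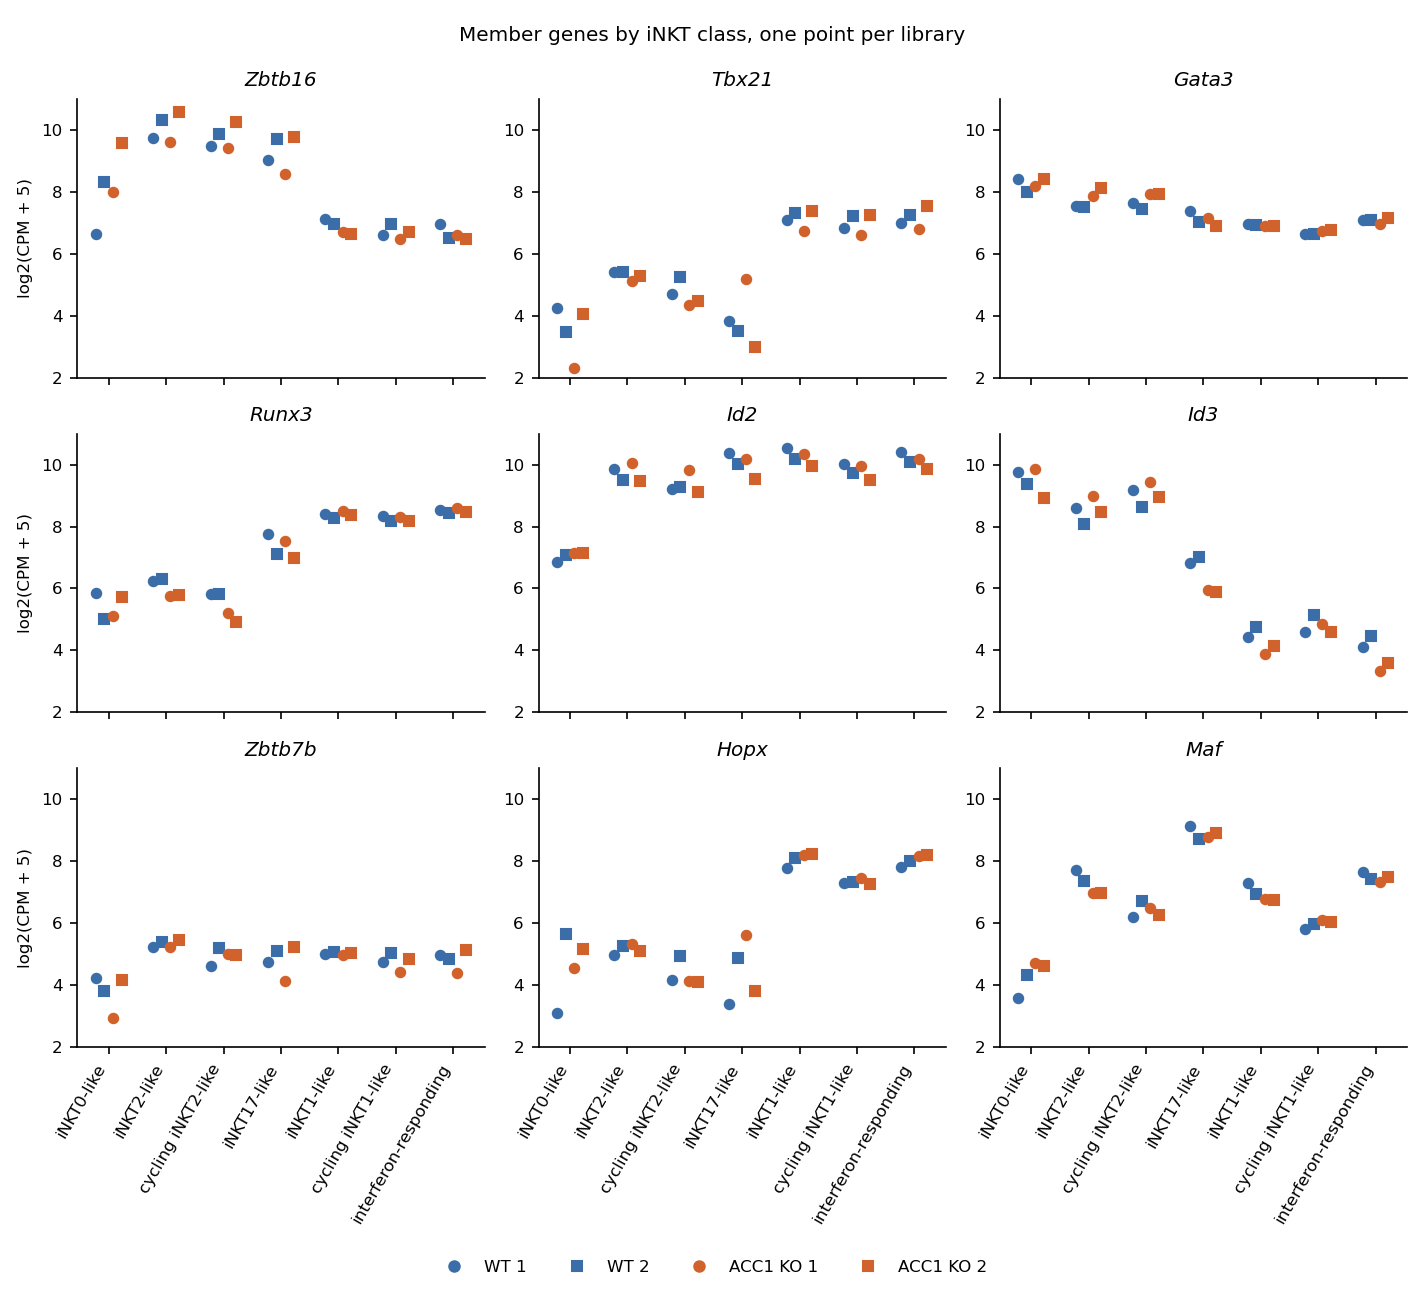
Level of 9 members in the 7 iNKT classes as log2(CPM + 5), 1 point per library, colour for genotype and shape for library number. Zbtb16 and Id3 sit high in the iNKT2-like classes (Id3 also in iNKT0-like cells), Tbx21, Runx3 and Hopx in the iNKT1-like classes, and Maf peaks in iNKT17-like cells.

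A minority of the cells carried a large share of the UMIs of some members. iNKT2-like and cycling iNKT2-like cells together were 4.5%, 3.30%, 7.76% and 8.29% of the iNKT cells. They held 34.9%, 44.2%, 54.3% and 72.0% of the Zbtb16 UMIs and 59.1%, 54.6%, 79.1% and 81.7% of the Id3 UMIs. The share was higher in both ACC1 KO libraries than in either WT library for each gene, as was the share of cells. Gata3 UMIs lay there to 12.3%, 12.1%, 24.3% and 30.2%, but Runx3 UMIs only to 1.77% to 2.30%.

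**Figure D2:**
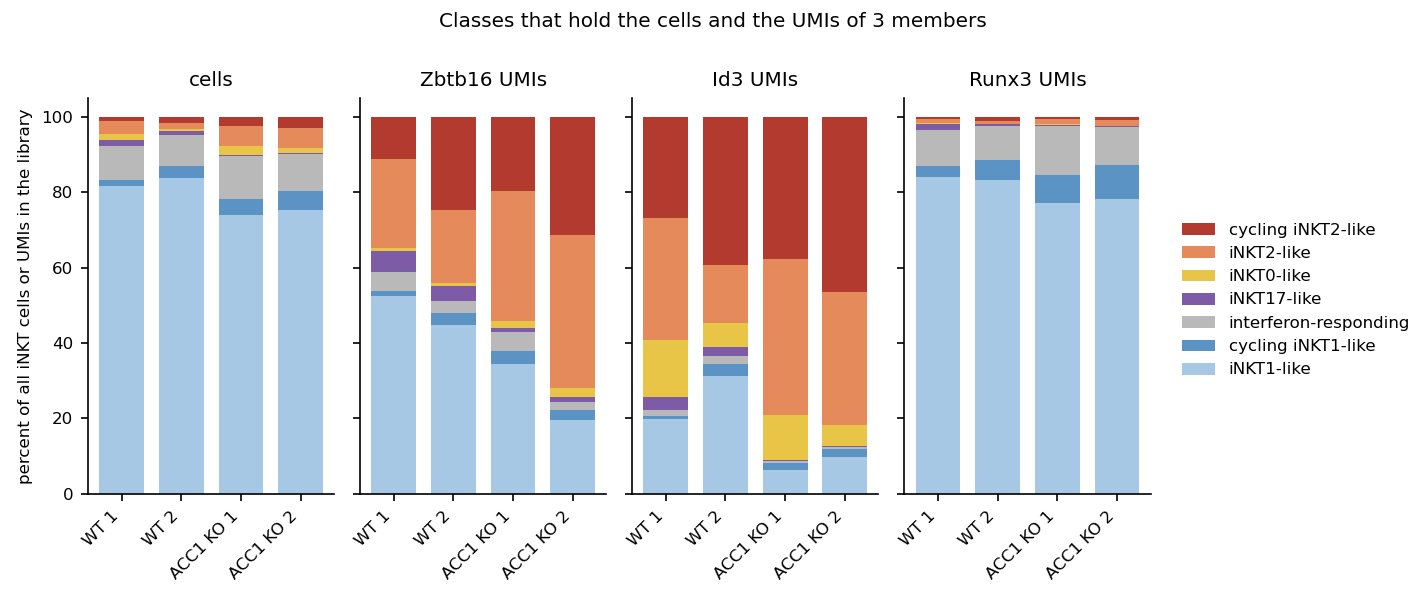
Percent of all iNKT cells, and of the Zbtb16, Id3 and Runx3 UMIs, that lay in each class, 1 stacked bar per library. The iNKT2-like and cycling iNKT2-like classes hold 3.30% to 8.29% of the cells, 54.6% to 81.7% of the Id3 UMIs and 34.9% to 72.0% of the Zbtb16 UMIs.

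For the comparison of genotypes, UMIs were summed per library and tested with edgeR's quasi-likelihood test over all genes. Acaca itself was 32.5, 32.0, 47.2 and 62.1 CPM, higher in both ACC1 KO libraries (log2 fold change 0.76 ± 0.17 SE, adjusted p = 0.638). The 3′ counts do not show the deleted part, so they check nothing about the labels. Over all iNKT cells 1 of 14713 genes was called at an adjusted p of 0.05 (0.0068%), and no member was. Without adjustment 1 member and 4.84% of all genes passed 0.05. ACC1 KO libraries lay wholly above WT for 2 of the 9 tested members and wholly below for 1, while over all genes these shares were 14.6% and 15.2%. The median log2 fold change was −0.05 over the 9 members and −0.01 over all genes.

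Id3 was the member with the clearest difference over all iNKT cells. Its level was 65.5, 54.6, 102 and 83.4 CPM, so neither WT library reached the level of an ACC1 KO library. The log2 fold change was 0.63 ± 0.17 (edgeR adjusted p = 0.742), with 0.65 between the libraries numbered 1 and 0.61 between those numbered 2. With the library number as a term in the fit, Id3 (edgeR adjusted p = 4.7e-06) and Maf (edgeR adjusted p = 0.0056) were called. That fit called many more genes, counted in the closing section, and the labels do not say what the number stands for. With every library reweighted to the same class mix, Id3 was 79.4, 72.1, 82.5 and 67.5 CPM, the groups overlapped and the difference was −0.02. In a sum over all cells, a change in the number of cells of a class and a change in RNA per cell cannot be told apart.

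Maf was lower in the ACC1 KO libraries, at 163, 123, 108 and 103 CPM without overlap (−0.43 ± 0.17, edgeR adjusted p = 1.0). The difference was −0.59 within number 1 and −0.25 within number 2, and WT 1 stood highest. At the same class mix Maf was 153, 121, 111 and 108 CPM. Zbtb16 was 198, 208, 190 and 312 CPM, with ACC1 KO 2 alone above the rest. Its log2 fold change was 0.31 ± 0.25 (edgeR adjusted p = 1.0), −0.06 within number 1 and 0.58 within number 2, −0.09 without ACC1 KO 2 and −0.10 at the same class mix. Gata3 was 130, 124, 133 and 138 CPM, without overlap but close together. Tbx21 (119, 143, 88.8 and 135 CPM), Runx3 (313, 286, 310 and 268 CPM) and Hopx (191, 242, 240 and 228 CPM) overlapped between genotypes. Id2 (1386, 1095, 1199 and 869 CPM) and Zbtb7b (27.0, 28.8, 24.7 and 27.8 CPM) also overlapped, and Id2 was higher in number 1 than in number 2 in both genotypes.

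Within iNKT1-like cells Id3, Zbtb16 and Maf were all lower in both ACC1 KO libraries. Id3 was 16.6, 21.9, 9.74 and 12.8 CPM, and the groups did not overlap. The log2 fold change was −0.77 ± 0.22 (edgeR adjusted p = 0.947), −0.76 within number 1 and −0.78 within number 2. Its direction was thus opposite to that over all iNKT cells. Zbtb16 was 133, 120, 98.4 and 94.5 CPM (−0.39 ± 0.13, adjusted p = 1.0), with −0.44 and −0.34 within the numbers. Maf was 153, 118, 104 and 103 CPM (−0.39 ± 0.16, adjusted p = 1.0), with −0.56 and −0.20. With the library number as a term Id3, Zbtb16 and Maf were called here (edgeR adjusted p = 4.5e-12, 7.2e-04 and 0.0013). The fit with that term called many more genes, counted in the closing section. Gata3 was nearly level at 119, 117, 115 and 115 CPM. Hopx lay higher, at 213, 272, 290 and 295 CPM (0.27 ± 0.17, adjusted p = 1.0). Without the number term 2 of 13643 genes tested in these cells were called (0.0147%), none a member. Wholly higher lay 1 member and wholly lower 4, where 13.1% and 14.4% of all genes did. Without adjustment 2 members, Id3 and Zbtb16, and 3.77% of all genes passed 0.05.

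**Figure D3:**
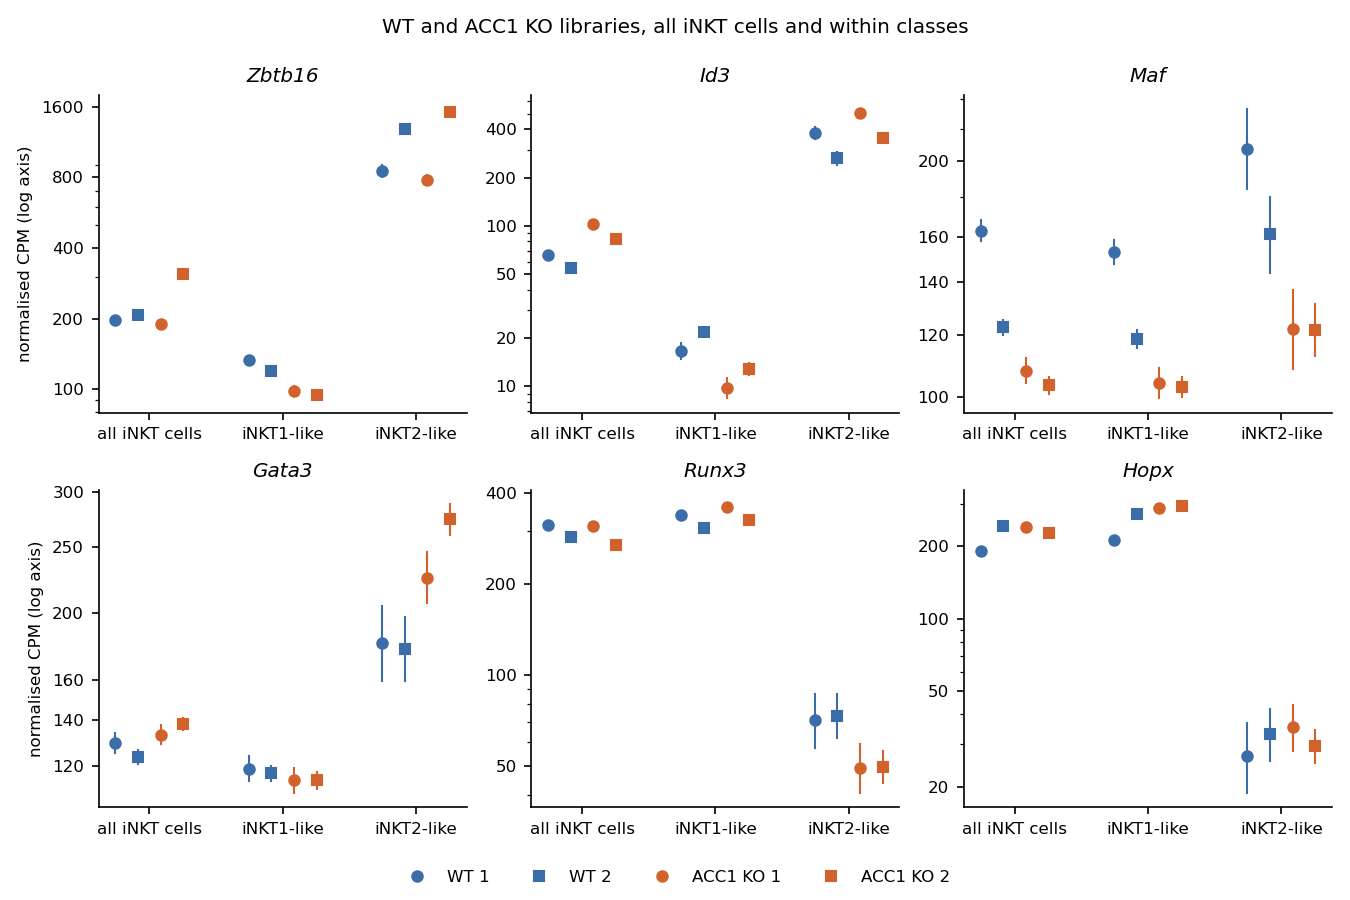
Normalised CPM of 6 members on log axes in all iNKT cells, iNKT1-like and iNKT2-like cells, 1 point per library with its 95% exact Poisson interval, which covers counting error only. Id3 is higher in the ACC1 KO libraries over all iNKT cells and lower within iNKT1-like cells, and Gata3 and Runx3 part in opposite directions within iNKT2-like cells.

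The iNKT1-like class was made of 7 clusters whose proportions differed between genotypes. Cluster 0, led by Atp8a2 and Cd226, held 43.1%, 22.3%, 16.9% and 10.3% of the iNKT1-like cells, and its Zbtb16 level was 199, 209, 204 and 213 CPM. Cluster 3, led by Ccl5 and Gzma, held 3.4%, 2.8%, 38.5% and 35.0%, with Zbtb16 at 77.9, 71.8, 63.0 and 64.9 CPM. These 2 clusters were chosen for their shift in share after the values were seen, and are not the extremes of Zbtb16. Cluster 2 had the lowest level, 42.5 CPM with libraries pooled, and held 5.19%, 27.2%, 17.7% and 20.8%, which overlapped between genotypes. With all libraries reweighted to the same mix of these clusters, Zbtb16 was 111, 119, 113 and 113 CPM and its difference shrank to −0.03. Maf then was 133, 116, 110 and 112 CPM (−0.17), and Hopx 244, 271, 268 and 282 CPM (0.09). Id3 was 17.0, 20.4, 9.67 and 13.5 CPM, a difference of −0.69 that was close to the one without reweighting.

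The smallest of these clusters, number 16, with 129 cells, was led by Egr3 among others. With libraries pooled, it held Zbtb16 at 387 CPM, Maf at 327 CPM and Tbx21 at 233 CPM, each above its iNKT1-like level. With as few as 18 cells in a library, its genotypes are not compared.

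**Figure D4:**
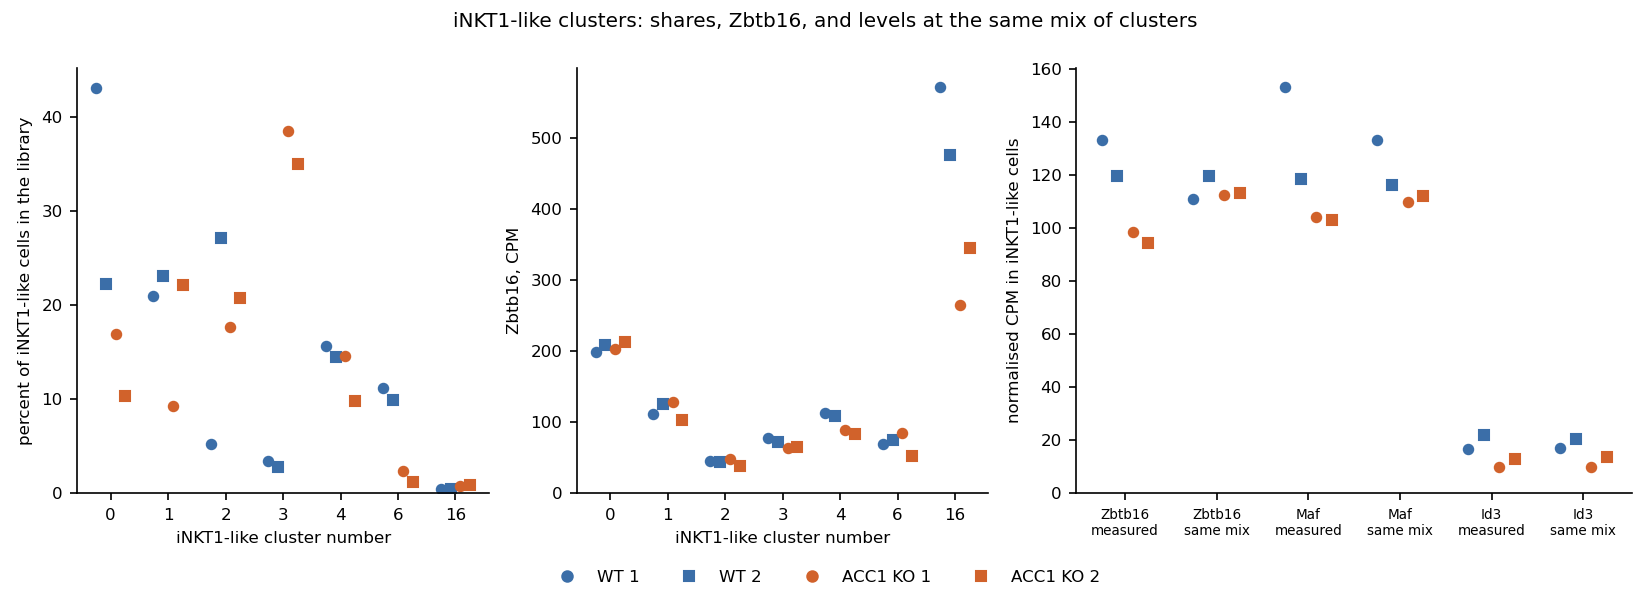
Percent of iNKT1-like cells in each of the 7 clusters (left), CPM of Zbtb16 in each (middle), and normalised CPM of Zbtb16, Maf and Id3 in iNKT1-like cells as measured and at the same mix of clusters (right), 1 point per library. At the same mix, an average over the clusters, the gap in Zbtb16 closes and that in Id3 remains. Id3, not drawn by cluster, is wholly lower in ACC1 KO in 5 of the 7 clusters and overlaps in cluster 0. Zbtb16 is still lower in ACC1 KO within some clusters, 3 and 4 among them.

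Within iNKT2-like cells Gata3 was higher, and Runx3 and Maf lower, in both ACC1 KO libraries. Gata3 was 181, 178, 226 and 274 CPM (0.48 ± 0.21, edgeR adjusted p = 1.0), with 0.31 and 0.62 within the numbers. Runx3 was 70.8, 73.3, 49.2 and 49.8 CPM, the members of each genotype nearly equal (−0.54 ± 0.20, adjusted p = 1.0), with −0.52 and −0.55 within the numbers. Maf was 207, 161, 122 and 122 CPM (−0.59 ± 0.21, adjusted p = 1.0), with −0.76 and −0.40. With the library number as a term Maf was called (edgeR adjusted p = 0.0402), in a fit that called more genes, counted in the closing section. Tbx21 lay slightly lower, at 37.6, 37.7, 29.5 and 33.9 CPM. Zbtb16 and Id3 overlapped between genotypes. Id3 was 382, 264, 504 and 352 CPM, 0.40 and 0.41 higher in ACC1 KO within the numbers. By edgeR's test 0 of 9594 genes were called here (0%), and 227 genes passed an unadjusted 0.05 (2.37%), among them the 3 members Gata3, Runx3 and Maf. DESeq2 called 2 genes. The groups did not overlap for 1 higher and 3 lower members, against 12.8% and 13.4% of all genes.

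The cycling iNKT2-like cells, too few in WT 1 for a test, shared some of these values. Gata3 was 193, 168, 241 and 236 CPM there, Runx3 51.8, 51.6, 32.4 and 25.2 CPM, and neither overlapped between genotypes. Maf, at 68.6, 100.1, 84.4 and 72.7 CPM, overlapped. Tbx21 and Hopx were also wholly lower, Hopx at 13.0, 25.8, 12.7 and 12.3 CPM. Thus 1 member lay higher and 3 lower, against 14.5% and 12.7% of 9973 genes. Whether the genotype difference itself differed between iNKT2-like and iNKT1-like cells was tested as an interaction. The difference of log2 fold changes was 0.52 ± 0.15 for Gata3 (edgeR adjusted p = 0.274) and −0.63 ± 0.18 for Runx3 (adjusted p = 0.224). Id3 had 1.16 ± 0.59 (adjusted p = 1.0). The 16 called of 13135 genes (0.122%) held no member when all 4 libraries were used. With 1 library left out, the difference for Id3 was 1.61 without WT 1 and 0.65 without WT 2. It was 0.77 without ACC1 KO 1 and 1.68 without ACC1 KO 2, and that for Zbtb16 was 0.96 without ACC1 KO 1. Some of these fits called Id3 or Zbtb16, but each leaves 1 library alone in its genotype, so only the size is given. With all 4 libraries 5.01% passed an unadjusted 0.05, Gata3, Runx3 and Id2 among them.

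Among the other classes, Id3 was lower in the interferon-responding ACC1 KO cells, at 12.2, 17.2, 5.06 and 7.17 CPM. That log2 fold change was −1.26 ± 0.33 (edgeR adjusted p = 0.614, or 2.1e-04 with the library number as a term). The fit with that term called many more genes, counted in the closing section. Without the term and without adjustment 1 member and 3.27% of all genes passed 0.05. In that class 5 of 10298 genes were called (0.0486%), and Hopx was the 1 member wholly higher, at 220, 252, 281 and 290 CPM, where 13.9% of genes were higher and 14.2% lower. In cycling iNKT1-like cells 3 of 10111 genes were called (0.0297%), no member among them, and 2.71% passed an unadjusted 0.05, again with no member. There Gata3 and Maf lay wholly higher, Maf at 51.3, 57.7, 64.2 and 60.6 CPM, against 14.8% of genes higher and 14.2% lower. iNKT17-like cells, with too few cells for a test, held Id3 at 109, 124, 56.3 and 54.0 CPM and Maf at 563, 421, 438 and 480 CPM. Maf thus overlapped in the class where it was highest.

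Single cells were compared after thinning each to 2000 UMIs, which kept 26870 cells and left out 195 that were shallower. Zbtb16 then had a UMI in 24.0%, 19.3%, 20.2% and 19.8% of iNKT cells, and Tbx21 in 21.6%, 24.4%, 15.9% and 22.8%. Before thinning these were 41.2%, 41.7%, 33.6% and 40.7% for Zbtb16, and 41.7%, 52.9%, 32.2% and 54.7% for Tbx21. In DP thymocyte-like cells thinned alike Zbtb16 had a UMI in 0% to 1.65% and Tbx21 in 0% to 2.60%. The median depth of these cells before thinning was 3038 to 8521 UMIs, against 4515 to 7346 UMIs for the iNKT cells. The thinned iNKT shares thus lay above that level in every library, and the genotypes overlapped for both genes. Before thinning, both ACC1 KO shares of Zbtb16 lay below both WT shares, while those of Tbx21 overlapped.

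Id3 in iNKT1-like cells was seen in 3.09% (95% Clopper-Pearson interval 2.56% to 3.69%), 4.19% (3.75% to 4.67%), 1.69% (1.32% to 2.14%) and 2.37% (2.0% to 2.80%) of thinned cells. Both ACC1 KO libraries were below both WT libraries, the intervals covering counting error only. An exact two-sided permutation test of 2 against 2 libraries cannot go below 0.33. Before thinning the shares were 6.65%, 10.8%, 3.68% and 6.75%, and ACC1 KO 2 then exceeded WT 1, which was sequenced less deeply per cell. In iNKT2-like cells Id3 was seen in 38.4%, 34.0%, 46.2% and 42.2% of thinned cells. DP thymocyte-like cells express Id3 (19.5% to 24.0% of thinned cells) and so give no background for it.

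A UMI of both Zbtb16 and Tbx21 was found in 4.94%, 4.5%, 3.17% and 3.56% of thinned iNKT cells. Within iNKT1-like cells the share was 5.40%, 4.75%, 3.11% and 3.74%, lower in both ACC1 KO libraries. In iNKT2-like cells 67.9%, 72.7%, 65.2% and 79.1% had Zbtb16 without Tbx21. Joint detection was summarised by the log2 odds ratio within each library, which is 0 when one gene is found as often in cells with the other as without. For Zbtb16 and Tbx21 it was −0.12, −0.11, −0.03 and −0.53 over all iNKT cells and 0.19, 0.17, 0.29 and 0.20 within iNKT1-like cells. The ratio was thus below 0 in every library over all iNKT cells and above 0 in every library within the class. Without thinning the first set had mixed signs, from −0.16 to 0.33.

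Zbtb16 paired most with Id3, at 1.26, 1.04, 2.30 and 2.63, and with Maf, at 0.75, 0.54, 0.60 and 0.54. The pairing of Zbtb16 with Maf held within iNKT1-like cells, at 0.69, 0.46, 0.72 and 0.63. Zbtb16 with Gata3 was 0.16 to 0.58 over all iNKT cells and −0.12 to 0.05 within iNKT1-like cells. Id2 and Id3 gave −2.25, −0.57, −1.53 and −1.10 over all iNKT cells, but −0.08 to 0.82 within iNKT1-like cells, where Id3 was rare. Tbx21 gave 0.17 to 0.23 with Hopx, −0.34 to 0.05 with Gata3, −0.00 to 0.34 with Maf and 0.05 to 0.44 with Id2, and Runx3 with Zbtb7b 0.06 to 0.17. Of the 36 pairs without Eomes, 12 were above 0 and 11 below 0 in all 4 libraries, and within iNKT1-like cells 7 and 5. Without thinning, 21 pairs were above and 6 below 0 over all iNKT cells, and the counts thus changed with depth. Eomes was too rare for its pairs with Zbtb16 and Tbx21. Sparse counts give only weak relations per cell, and these values are a description.

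**Figure D5:**
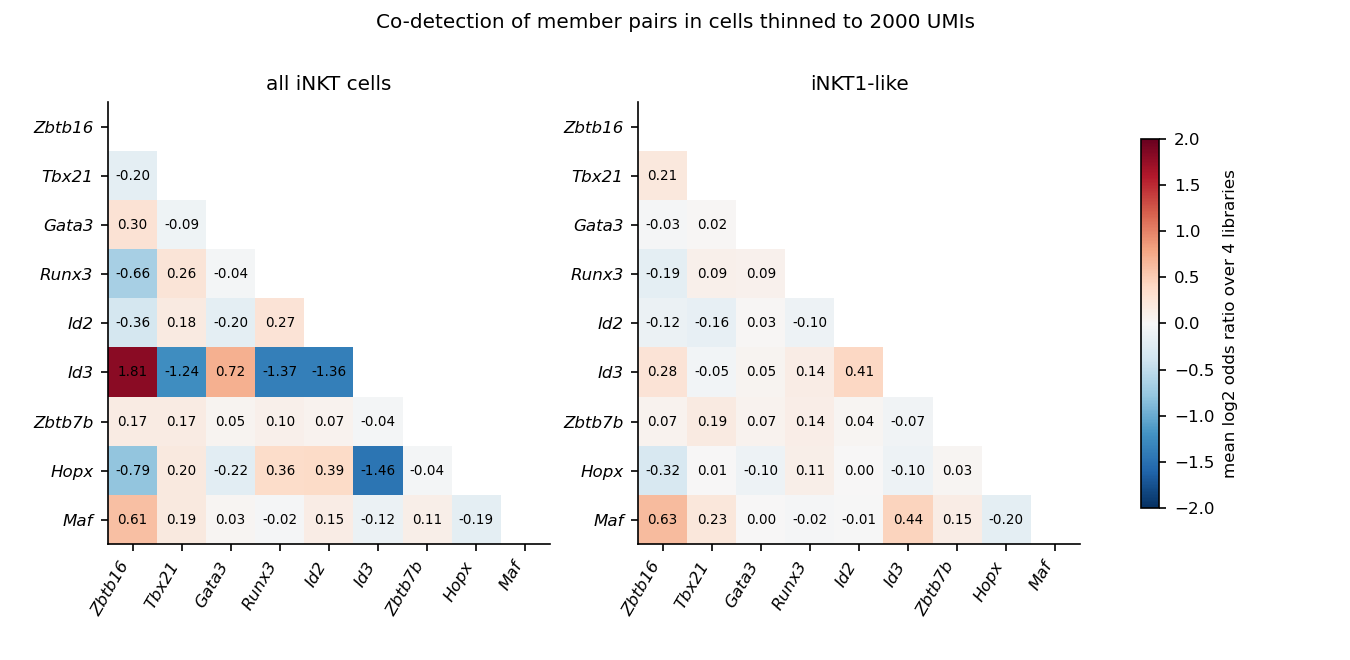
Mean log2 odds ratio over 4 libraries for each of 36 member pairs in cells thinned to 2000 UMIs, over all iNKT cells (left) and within iNKT1-like cells (right). Zbtb16 with Id3 has the highest mean over all iNKT cells (1.81), and Zbtb16 with Maf has the highest within iNKT1-like cells (0.63, against 0.61 over all iNKT cells).

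Across the 14 iNKT clusters, with libraries pooled, Zbtb16 correlated with Id3 at 0.85 (Pearson's r of log2(CPM + 5)) and 0.78 (Spearman's rho), and Runx3 with Id3 at −0.98 and −0.87. For Zbtb16 with Tbx21 r was −0.69 but rho −0.30, and for Tbx21 with Hopx r was 0.89 but rho 0.44, so ranks related these pairs less than levels did. The clusters share libraries and were formed from the other genes of the same cells, so this is a description. Of 6109 genes compared, the 3 most like Zbtb16 were Cpq (0.95), Igf2r (0.95) and Snx4 (0.93), and the most opposite was Tsc22d3 (−0.96). Adgre5 (0.98), Samd3 (0.97) and Klra3 (0.97), the last a Ly49 receptor gene, were most like Tbx21. Runx3 had Myo1f at 0.99, and Id3 had Nrgn at 0.98. Hopx had Il10rb, Klrd1 and Nkg7 at 0.97 to 0.98, and the last 2 encode a CD94 receptor chain and a granule protein of cytotoxic cells. Atp6v1d (0.97) was closest to Gata3, Lfng (0.94) to Id2 and A630023P12Rik (0.94) to Zbtb7b. Maf had Bcl2a1b at 0.94, 1 of several near-identical Bcl2a1 genes whose counts may be split.

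Genes that act with or after the members were read from 5 lists, and the 1 gene edgeR called over all iNKT cells was on none of them. An unadjusted 0.05 was passed by 0, 6, 6, 6 and 9 measured genes of the lists in the order below, against 4.84% of all genes. Of 16 E proteins and partners 10 were measured, 1 lying wholly higher and 1 wholly lower in ACC1 KO, with a median log2 fold change of −0.10. Ldb1, an adaptor of E protein complexes, was 57.7, 48.9, 52.8 and 46.6 CPM. Of 54 other regulators, all measured, 11 lay higher and 8 lower (median −0.03). Ezh2, the histone H3K27 methyltransferase, was 29.9, 34.7, 48.1 and 52.4 CPM, and Bhlhe40 32.3, 36.9, 46.1 and 59.7 CPM. These counts can be read against 14.6% and 15.2% of all genes.

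Of 25 genes known to follow T-bet, all measured, 2 lay higher and 7 lower (median −0.10). Cd160, a receptor of cytotoxic lymphocytes, was 88.4, 78.3, 41.2 and 33.1 CPM (−1.17 ± 0.16, edgeR adjusted p = 0.365). Gzmb, a granule protease, went the other way, at 310, 280, 533 and 481 CPM (0.78 ± 0.16, adjusted p = 0.554). Cxcr3 was 112, 124, 85.6 and 81.3 CPM (−0.50 ± 0.13, edgeR adjusted p = 0.725), so genes of this list did not share a direction. Gzmb and Cxcr3, like other genes of the list, also served to name iNKT1-like cells.

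Of 26 genes known to follow GATA3 or PLZF, 25 were measured, 6 lying higher and 5 lower (median −0.02). The integrin gene Itga4 was 22.0, 27.8, 11.6 and 9.56 CPM (−1.24 ± 0.19, edgeR adjusted p = 0.372). Plac8 was 88.2, 45.03, 204 and 109 CPM and the cytokine gene Il13 3.44, 6.03, 8.02 and 10.6 CPM, and both also served to name iNKT2-like cells. Within iNKT2-like cells Il13 was 28.9, 30.04, 48.4 and 53.1 CPM (0.79 ± 0.23, adjusted p = 1.0). It was the 1 of 23 measured genes of the list to lie wholly higher in that class, while 7 lay wholly lower and the median was −0.11. Of the 13 genes of the RORγt program 12 were measured and 9 lay lower, none higher, with a median of −1.81. Blk was 14.4, 8.93, 2.44 and 2.78 CPM (−2.15 ± 0.29, adjusted p = 0.330). The iNKT17-like cells that hold this program were also fewer in ACC1 KO, as given above.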

How the data were processed

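The authors deposited UMI counts per gene and cell for each library, made with Cell Ranger 7.0.0 on mm10, per the submitters' processing notes, as whole-number counts without normalisation. The members and lists were chosen with earlier results of these data known. Kept barcodes had 500 or more genes, 1000 or more UMIs and a mitochondrial share below 10%, and doublets were removed at a rate of 0.8% per 1000 cells from scores against simulated doublets. This left 28247 of 30455 barcodes. Clusters (Python 3.11.15, scikit-learn 1.9.0, leidenalg 0.10.2; 2000 variable genes without the members, 30 components, 15 neighbours, resolution 1) were named "-like" from listed markers, with score limits set after the scores were seen. Of 20 clusters 14 were iNKT, and 600 B cell-like and 582 DP thymocyte-like cells were set aside.

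Counts were summed per library and class where every library had at least 50 cells, which left out the iNKT0-like, iNKT17-like and cycling iNKT2-like classes. They were tested in R 4.3.3 with edgeR 4.0.16 (TMM, filterByExpr, robust quasi-likelihood fit, prior count 2), and p-values were adjusted by Benjamini and Hochberg across every tested gene, genes under 0.05 being called. The scripts were tested on simulated data. Library totals of 29066597 to 74190167 UMIs set the counting error, and the 2 libraries per genotype limit every test. Named beside the members were Acaca, up to 4 genes of each list with the smallest p, and the 3 genes most like each member over clusters. Alternatives were DESeq2 1.42.0, other normalisation, filter, block, clustering, doublet and thinning choices, and each library left out.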

Additional observations from a re-analysis of the deposited data

Results flagged for a closer look

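In these results every library of one class moved one way with genotype and every library of another class the opposite way, both ACC1 KO libraries against both WT libraries. Each value is the difference between the classes' log2 ratios of mean CPM + 5, and the difference was not tested for the classes named here. The pairs were picked by this rule from many combinations of member and classes, and no share over all genes was computed for such pairs. In iNKT1-like cells alone 13.1% of all genes lay wholly higher and 14.4% wholly lower. In cycling iNKT2-like cells these shares were 14.5% and 12.7%. Gata3 was higher in the ACC1 KO libraries in cycling iNKT1-like and cycling iNKT2-like cells and lower in iNKT1-like cells, by 0.15 and 0.44. In iNKT1-like cells, though, Gata3 was nearly level, as given above. Hopx was higher in iNKT1-like and in interferon-responding cells and lower in cycling iNKT2-like cells, by 0.74 and 0.75. In cycling iNKT2-like cells, though, Hopx was low, and WT 1 was nearly level with both ACC1 KO libraries, as given above. Maf was higher in iNKT0-like and cycling iNKT1-like cells and lower in iNKT1-like cells, by 1.04 and 0.55. Against iNKT2-like cells, where Maf was also lower, the differences were 1.24 for iNKT0-like and 0.76 for cycling iNKT1-like cells. Maf in iNKT0-like cells was 6.99, 15.2, 21.2 and 19.7 CPM, a low level in few cells.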

How the results depend on the processing

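Of 423 recomputed log2 fold changes of members, 389 kept direction and side of the threshold, 9 passed it and 25 changed sign. The number of genes called moved with many settings. In the order all iNKT, iNKT1-like, iNKT2-like, interferon-responding and cycling iNKT1-like cells, it was 1, 2, 0, 5 and 3, and became 100, 86, 2, 10 and 10 with DESeq2's Wald test and 351, 223, 26, 78 and 38 without a filter on low counts. Keeping doublets gave 0, 1 and 6 for all iNKT, iNKT1-like and cycling iNKT1-like cells, and every deposited barcode gave 0. In cycling iNKT1-like cells 6 genes were called with the members among the variable genes and 5 at resolution 2, and 1 in iNKT1-like cells at resolution 0.5. The class by genotype difference had 16, and 4 by DESeq2. Leaving out 1 library gave 1 to 22, 1 to 22, 3 to 30, 0 to 9, 6 to 13 and, for class by genotype, 26 to 63 genes. The cause was not tested.

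A replicate block called 1365, 1275, 79, 380 and 95 genes in the same order of cells. The fits without the block tested 14713, 13643, 9594, 10298 and 10111 genes. Members called with the block are to be read against these counts. Deviations from the group means correlated at 0.896 between same-numbered libraries over 5992 genes. This is 1 value for both numbers, because 2 libraries deviate equally and oppositely from their mean. The numbers also differ in Xist and Ddx3y in both genotypes. With 2 pairs and no label that ties same-numbered libraries, the pairing is a hint from the data, not the design. With the block Id3 was called over all iNKT cells (0.63, edgeR adjusted p = 4.7e-06), in iNKT1-like (−0.77, 4.5e-12) and in interferon-responding cells (−1.26, 2.1e-04). Maf was called over all iNKT (−0.42, 0.0056), iNKT1-like (−0.37, 0.0013) and iNKT2-like cells (−0.58, 0.0402), and Zbtb16 in iNKT1-like cells (−0.39, 7.2e-04). Without a filter on low counts Id3 was called over all iNKT (0.0421) and iNKT1-like cells (0.0091). In the fit of the class by genotype difference the library term already holds the number, and a term for number by class was not fitted.

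At the same mix of classes Zbtb16, Runx3 and Id3 turned to −0.10, 0.078 and −0.016 over all iNKT cells. At the same mix of iNKT1-like clusters, an alternative chosen after seeing the data, Runx3 turned to −0.014. Hopx in iNKT2-like cells turned to −0.012 with the members among the variable genes. Leaving out 1 library turned the sign over all iNKT cells for Zbtb16 (−0.094 to 0.63), Tbx21 (−0.56 to 0.057), Runx3 (−0.14 to 0.049), Zbtb7b (−0.18 to 0.0093) and Hopx (−0.043 to 0.30). It also did in iNKT1-like cells for Tbx21 (−0.51 to 0.18) and Zbtb7b (−0.096 to 0.0062), and in iNKT2-like cells for Zbtb16 (−0.44 to 0.52), Id2 (−0.21 to 0.37), Zbtb7b (−0.11 to 0.16) and Hopx (−0.035 to 0.28). The same held in interferon-responding cells for Zbtb16 (−0.44 to 0.034) and Maf (−0.24 to 0.0048), and in cycling iNKT1-like cells for Id3 (−0.54 to 0.15). For class by genotype the ranges were −0.059 to 0.96 for Zbtb16, −0.31 to 0.17 for Tbx21 and −0.0091 to 0.16 for Zbtb7b. Id3 kept its sign there (0.65 to 1.68), and some of these fits called Id3 or Zbtb16. Each range runs over 4 fits that leave 1 library alone in its genotype, assumed to vary like the others.

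Shares of cells with a UMI, ACC1 KO minus WT, changed sign without thinning for Gata3 (0.989 percentage points) and Zbtb7b (0.113) over all iNKT cells, Runx3 in iNKT1-like cells (1.11), and Id2 (−0.123), Zbtb7b (1.27) and Hopx (−0.217) in iNKT2-like cells. Thinned to 1000 UMIs, Runx3 in iNKT1-like cells (0.407) and Zbtb7b in iNKT2-like cells (0.402) did. Of 18 alternatives for joint detection 12 moved, among them Tbx21 with Id2, from a mean of 0.18 to 1.90 without thinning and −0.16 within iNKT1-like cells. Depth limits the low members most, Eomes and Zbtb7b among them.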
